A study of Mus musculus with 8 samples.

Results

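Interferon response genes were followed here as a set of 39 genes of interferon signalling and of its induced products outside antigen presentation, matched by gene symbol. All 39 symbols were found among the 52636 genes listed, and all 39 passed the filter on low counts that left 15562 genes for testing. RNA of whole liver from C57BL/6 mice aged 8 weeks was sequenced in 8 samples. Both Ctcf alleles were floxed and albumin-Cre was absent in 4 (WT), and in the other 4 the same floxed alleles were combined with albumin-Cre (cKO). The albumin promoter drives Cre in hepatocytes, so that Kupffer cells and endothelium keep Ctcf. Ctcf was not measured by cell type here. No group carried Cre without floxed Ctcf, so that an effect of Cre and the loss of Ctcf cannot be told apart. CTCF is a DNA-binding protein that anchors chromatin loops.

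Interferons are cytokines made on infection and released to neighbouring cells. Type I interferons act through the receptor chains Ifnar1 and Ifnar2, and interferon gamma through Ifngr1 and Ifngr2. Janus kinases on these receptors phosphorylate STAT factors. A complex with Stat2 and Irf9 binds interferon-stimulated response elements, while the gamma route acts on gamma-activated sequences. The products induced by either route include sensors of viral RNA, enzymes that cut or trap it, and GTPases that attack the vacuoles of intracellular parasites. Most cell types carry the type I receptor and keep a low tonic level of many induced genes in the absence of infection.

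Of the 39 members, 4 rose and 10 fell in cKO at an adjusted p under 0.05 (edgeR quasi-likelihood test, adjusted by Benjamini-Hochberg over all tested genes). That is 35.9% of the members, where 30.1% of all tested genes were called. In the upward direction 10.3% of the members were called against 15.2% of all genes, and in the downward direction 25.6% against 14.9%. The 4 WT and 4 cKO libraries did not overlap for 10 members (25.6%), 4 above and 6 below WT, and for 30.6% of all tested genes. Among the 10 falls, 4 were in transcription factors of the response: Stat2, Irf1, Irf3 and Irf9. Of the 29 members that are neither receptor nor transcription factor, Isg15, Mx2, Trim25, Igtp and Irgm1 were lower, Ifit2 and Gbp3 were higher, and 22 were not past this threshold. So 24.1% of these 29 were called (6.9% higher and 17.2% lower), against 30.1% of all tested genes. Their genotypes did not overlap for 13.8%, against 30.6%. The median log2 change of the members was 0.04, and that of all tested genes was -0.01. The members' median turned negative with the filter of 1 CPM (-0.13, against 0.00 for all genes) and with an offset for transcript length (-0.15 against -0.01), and on log2(TPM + 1) it lay below that of all genes (0.00 against 0.12). Without WT replicate 2 or cKO replicate 2 the count of higher members was 2. Higher genes over all tested genes numbered 1904 and 2167 in those fits, against 2367 with all libraries. Without WT replicate 3, cKO replicate 3 or cKO replicate 4 the count of lower members was 5, 6 or 5. Lower genes over all tested genes then numbered 1626, 1645 and 1624, against 2322.

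The split between directions moved with the processing, for all tested genes as well as for the members. The main fit called 2367 genes higher and 2322 lower. Scaling to library size alone gave 7 members higher and 6 lower, and 3604 genes higher and 1318 lower. The median log2 change of all tested genes was then 0.10, and the members' median lay 0.04 above it, as in the main fit. Limma on log2(TPM + 1), which also changed the unit, the test and the filter (13364 genes), gave 8 and 4 members. It called 3491 genes higher and 816 lower, with an all-gene median of 0.12. The falls of Stat2, Irf3 and Irf9 and the rises of Ifngr2 and Ifit2 were called at an adjusted p under 0.05 in all 20 alternative fits. At the stricter 0.01 Ifngr2 and Ifit2 were not called. Ifit2 had 0.34 to 0.37 TPM in WT and 0.53 to 0.75 TPM in cKO. It met the filter of the log2 TPM fits, at least 0.5 TPM in 4 libraries, through cKO alone. Those fits are therefore no separate support for its rise.

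**Figure D1:**
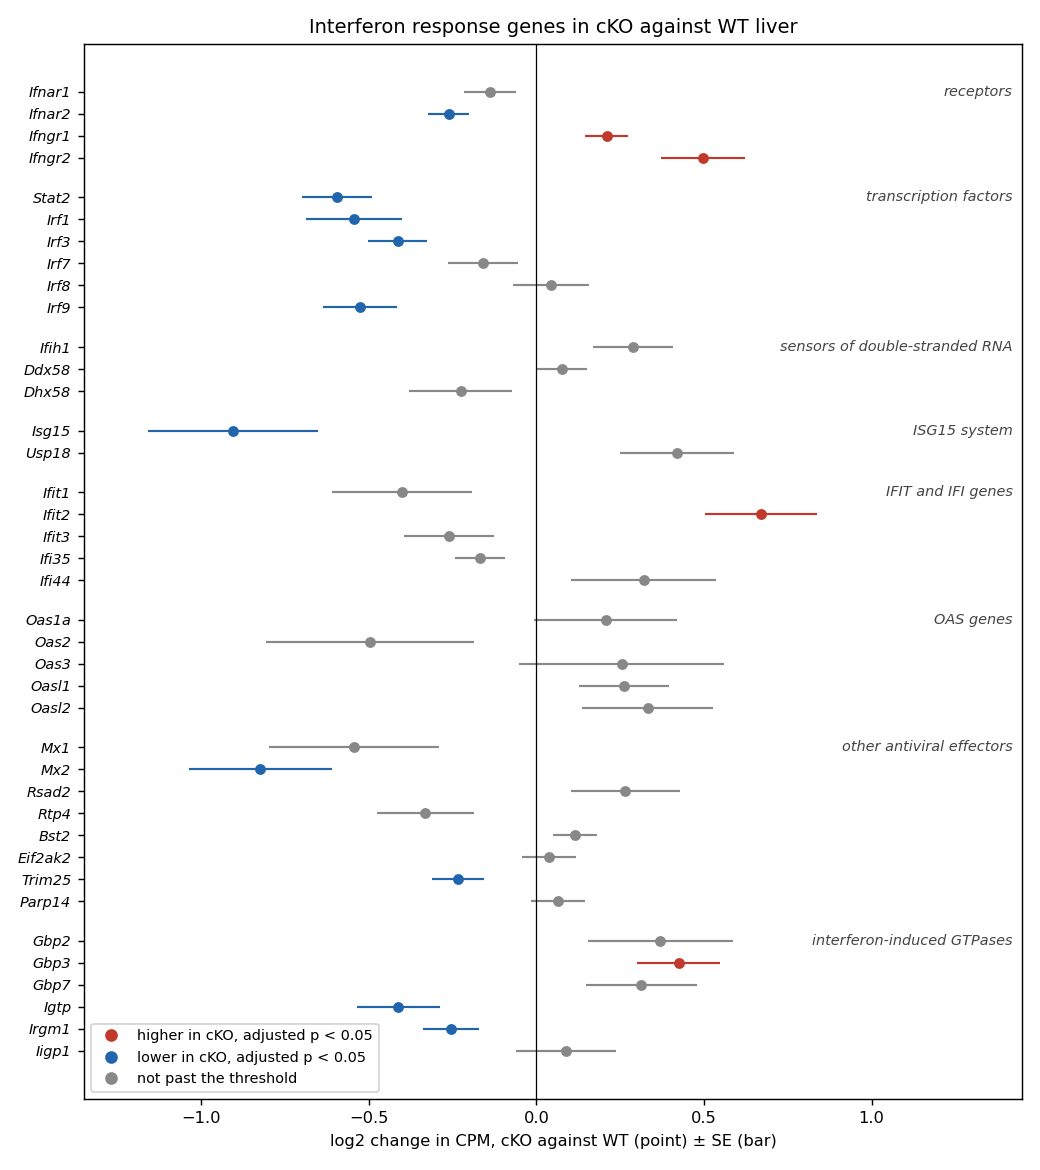
Log2 change in CPM of the 39 interferon response genes, cKO against WT, with the standard error as a bar, ordered by role. The 10 lower members in blue include 4 of 6 transcription factors, and the 4 higher members in red are Ifngr1, Ifngr2, Ifit2 and Gbp3.

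Assigned counts totalled 43.9 M to 50.4 M in WT and 50.3 M to 57.3 M in cKO, and the least counted member, Oas3, had at least 22 counts in a library. Levels are given in CPM, counts relative to the library total scaled with TMM factors, as mean ± SD over 4 libraries where a group is summarised. Ctcf itself had 16.5 ± 0.41 CPM in WT against 12.2 ± 0.95 CPM in cKO (log2 change -0.44, edgeR adjusted p = 0.00177), lower in every cKO library. In bulk RNA, fewer cells of a type and less RNA per cell cannot be told apart, and markers of several cell types differed between the genotypes. Of 12 hepatocyte markers, which summed to 109010 to 140040 CPM in WT and 116500 to 131860 CPM in cKO, 6 were lower and 1 higher. Of 12 markers of recruited and lipid-associated macrophages 8 were higher, with summed levels of 31.2 to 38.9 CPM in WT and 63.6 to 97.6 CPM in cKO. Of 11 tested T and NK cell markers 5 were higher (4.91 to 6.71 CPM against 7.60 to 13.2 CPM, over 12), of 8 conventional dendritic cell markers 3 (11.04 to 16.1 against 12.8 to 17.0 CPM), and all 12 stellate cell and fibroblast markers (157 to 173 against 334 to 447 CPM). Of 7 tested markers of plasmacytoid dendritic cells, which make much type I interferon, Ly6d alone was higher. None of these markers was at 0 in all libraries. Their part in the changes below was not tested. Of the 12 sinusoidal endothelial markers 1 was higher (201 to 373 CPM against 268 to 408 CPM), and of 7 tested cholangiocyte markers 4 were higher and 1 lower. Kupffer cells, which express many induced genes, had 1 of 12 markers higher, Marco, with sums of 357 to 546 CPM in WT and 296 to 486 CPM in cKO.

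Promoter sequences are shown for members that moved in opposite directions or stayed level, since the letters bound by the interferon factors were found in both. In RefSeq's GRCm38.p6 windows, 250 bases before to 50 after a start, 31 members had a promoter. The interferon-stimulated response element was searched as 2 copies of GAAA with 2 bases of any kind between them, and the gamma-activated sequence as TTCNNNGAA, on both strands, with overlapping matches kept. The first was found in 16 of the 31 members (51.6%). Counted by promoter, it was found in 16 of the members' 36 promoters and in 3.44% of all 32851 promoters. Of those 16 members 4 were lower in cKO, 1 was higher and 11 did not pass. The second was found in 11 of 31 members (35.5%), by promoter in 11 of their 36, and in 8.3% of all promoters. A CTCF core, searched as CCA, AG and GGC with 2 bases of any kind between each, was found in 1 member, Irf8, and in 2.43% of all promoters. A match is a run of letters and not a measured site. The windows below run 5′ to 3′ on the gene's strand, with the response element in capitals, or for Irf1 the gamma-activated sequence.
Isg15, lower in cKO, chr4:156200819-156200918, minus strand: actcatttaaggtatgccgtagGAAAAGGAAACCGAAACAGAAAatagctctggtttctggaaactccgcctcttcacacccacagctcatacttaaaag
Irgm1, lower, chr11:48871421-48871520, minus strand: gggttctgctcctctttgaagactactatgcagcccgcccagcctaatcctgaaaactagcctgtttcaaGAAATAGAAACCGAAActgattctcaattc
Igtp, lower, chr11:58199456-58199555, plus strand: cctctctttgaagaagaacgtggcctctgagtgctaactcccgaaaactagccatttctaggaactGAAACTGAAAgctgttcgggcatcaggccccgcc
Stat2, lower, chr10:128270248-128270347, plus strand: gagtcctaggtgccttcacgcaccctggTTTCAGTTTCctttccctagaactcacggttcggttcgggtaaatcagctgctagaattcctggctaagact
Irf1, lower, chr11:53769864-53769963, plus strand: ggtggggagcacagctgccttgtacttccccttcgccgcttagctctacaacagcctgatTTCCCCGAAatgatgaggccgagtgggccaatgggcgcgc
Gbp3, higher, chr3:142559944-142560043, plus strand: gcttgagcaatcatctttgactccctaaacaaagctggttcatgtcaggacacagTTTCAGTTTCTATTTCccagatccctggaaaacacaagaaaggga
Bst2, not past the threshold, chr8:71537523-71537622, minus strand: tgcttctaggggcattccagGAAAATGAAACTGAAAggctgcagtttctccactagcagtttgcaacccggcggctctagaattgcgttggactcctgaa
Ifit3, not past the threshold, chr19:34583329-34583428, plus strand: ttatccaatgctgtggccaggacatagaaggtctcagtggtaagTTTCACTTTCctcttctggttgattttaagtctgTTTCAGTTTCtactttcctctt
Isg15 held 3 overlapping matches, and Irgm1, Gbp3 and Bst2 held 2 overlapping matches each. In Ifit3 the 2 matches lay apart. The gamma-activated letters were also found in Bst2, where they overlapped the response element, and in Igtp, where they did not. Neither promoter of Ifit2 held the response element in this window.

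Of the receptor chains, Ifnar2 was lower and both gamma chains were higher. Ifnar2, the chain that binds type I interferon most tightly, had 101, 102, 102 and 103 CPM in WT replicates 1 to 4 and 90.2, 82.5, 84.1 and 83.4 CPM in the cKO replicates. All 4 cKO libraries lay below the WT libraries, which barely varied (log2 change -0.26, SE 0.06, edgeR adjusted p = 0.00819). The fall was past the threshold without any 1 library but not with library size alone (adjusted p 0.0792) or on log2(TPM + 1) (0.257). Ifnar1, its partner chain, had 31.9, 26.0, 26.9 and 28.3 CPM in WT and 27.0, 27.1, 24.3 and 24.5 CPM in cKO, with overlapping groups (log2 change -0.14, edgeR adjusted p = 0.205).

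Both chains of the interferon gamma receptor were higher in cKO. Ifngr1, which binds the ligand, had 14.6, 14.4, 14.0 and 14.6 CPM in WT and 16.7, 17.2, 16.4 and 16.4 CPM in cKO (log2 change 0.21, SE 0.06, edgeR adjusted p = 0.0277). The groups did not overlap, but the call was lost without any 1 of WT replicates 2 and 3 and cKO replicates 1 and 2 (adjusted p 0.0559 to 0.0829). Ifngr2, the signalling chain, had 9.14, 12.1, 11.7 and 13.3 CPM in WT and 15.7, 13.6, 19.0 and 16.8 CPM in cKO. Its lowest cKO library was just above its highest WT library (log2 change 0.50, SE 0.13, edgeR adjusted p = 0.0122).

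Of these 4 receptor genes 3 lie in a row on mm10 chromosome 16, from 91372783 to 91564007, together with Il10rb, a chain shared by the receptors for interleukin 10 and interferon lambda. In that order along 191 kb, Ifnar2 was lower, Il10rb higher, Ifnar1 not past the threshold and Ifngr2 higher. Il10rb begins 567 bases after Ifnar2 ends and was higher, at 10.03 ± 0.83 CPM against 6.60 ± 0.62 CPM in WT (log2 change 0.60, SE 0.10, edgeR adjusted p = 0.00139). The next 4 tested genes, Tmem50b, Dnajc28, Gart and Son, had log2 changes of 0.05, 0.00, -0.05 and -0.18, with edgeR adjusted p values of 0.125 to 0.987. This stretch was chosen for description after the values of the receptors were seen.

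**Figure D2:**
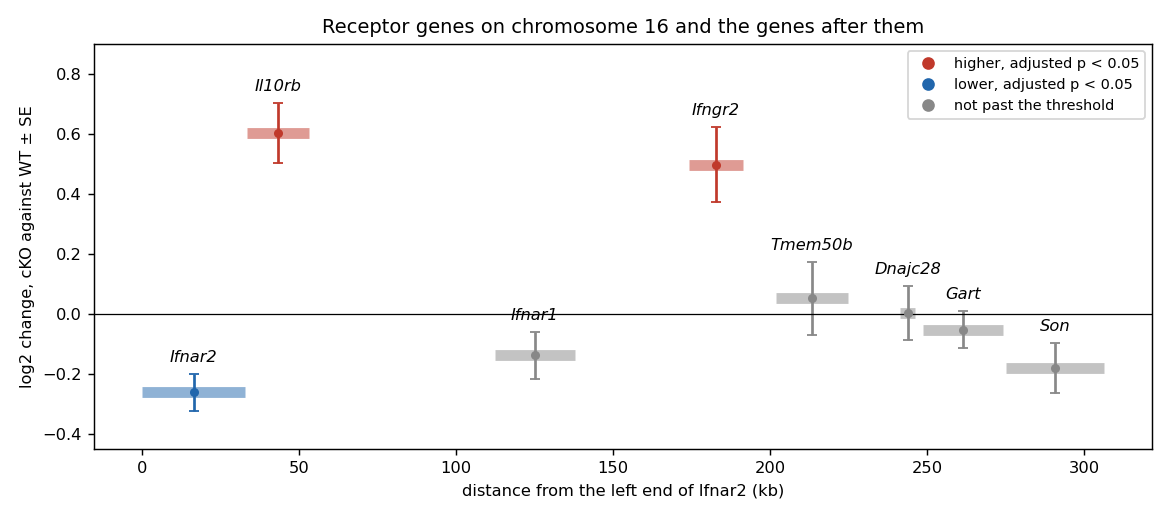
Log2 change, cKO against WT, of the tested protein-coding genes from Ifnar2 to Son, against distance from the left end of Ifnar2 in kb. Thick bars span each gene and thin bars are standard errors; Ifnar2 lies at -0.26 beside Il10rb at 0.60, and the 4 genes after Ifngr2 lie between -0.18 and 0.05.

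Of 6 transcription factors 4 were lower and 0 higher; none was higher at an unadjusted p under 0.05 either, and none by DESeq2 or limma-voom. Stat2 (ENSMUSG00000040033, chromosome 10, 128270498 to 128292853), the subunit that carries the activating domain of the type I factor, had 89.3, 81.2, 95.0 and 86.0 CPM in WT. In cKO it had 65.5, 63.2, 58.4 and 45.6 CPM, each below the lowest WT library, so that 66.2% of the WT level remained (log2 change -0.59, SE 0.10, edgeR adjusted p = 0.00203). Irf9 (chromosome 14, 55603985 to 55610030), which gives that complex its DNA binding, had 29.1, 29.8, 33.3 and 28.4 CPM in WT and 22.1, 25.5, 17.9 and 18.3 CPM in cKO. These groups did not overlap either (log2 change -0.53, SE 0.11, edgeR adjusted p = 0.00507). The Stat2 gene overlaps Apof in the annotation, an abundant liver gene at 806 CPM in WT, and reads in the shared stretch may be assigned to either.

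Irf3, the factor that switches on interferon beta once viral nucleic acid is sensed, had 102, 95.8, 96.5 and 89.4 CPM in WT and 80.9, 76.9, 68.7 and 61.6 CPM in cKO. The 2 groups were separate (log2 change -0.41, SE 0.09, edgeR adjusted p = 0.0054). Irf1, an activator of many genes downstream of interferon gamma, had 43.8, 33.4, 42.2 and 34.7 CPM in WT and 34.0, 22.5, 26.7 and 22.5 CPM in cKO, where replicate 1 lay inside the WT range. It passed the test (log2 change -0.55, SE 0.14, edgeR adjusted p = 0.0183), but not without WT replicate 3 (0.0521), cKO replicate 3 (0.0511) or cKO replicate 4 (0.0551). Irf1 was past the threshold with library size alone but not on log2(TPM + 1) (0.0641).

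The other two factors did not pass. Irf7, which amplifies the type I response and is itself induced by it, had 34.5, 33.7, 38.5 and 37.3 CPM in WT and 35.8, 37.2, 26.1 and 30.1 CPM in cKO (log2 change -0.16, SE 0.10, edgeR adjusted p = 0.274). Replicates 1 and 2 of cKO were inside the WT range and replicates 3 and 4 below it. Irf8, a factor of macrophages and dendritic cells, had 5.47, 5.50, 6.12 and 5.48 CPM in WT and 6.28, 6.39, 4.86 and 5.74 CPM in cKO (log2 change 0.04, SE 0.11, edgeR adjusted p = 0.798). Its cKO values lay on both sides of the WT values.

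**Figure D3:**
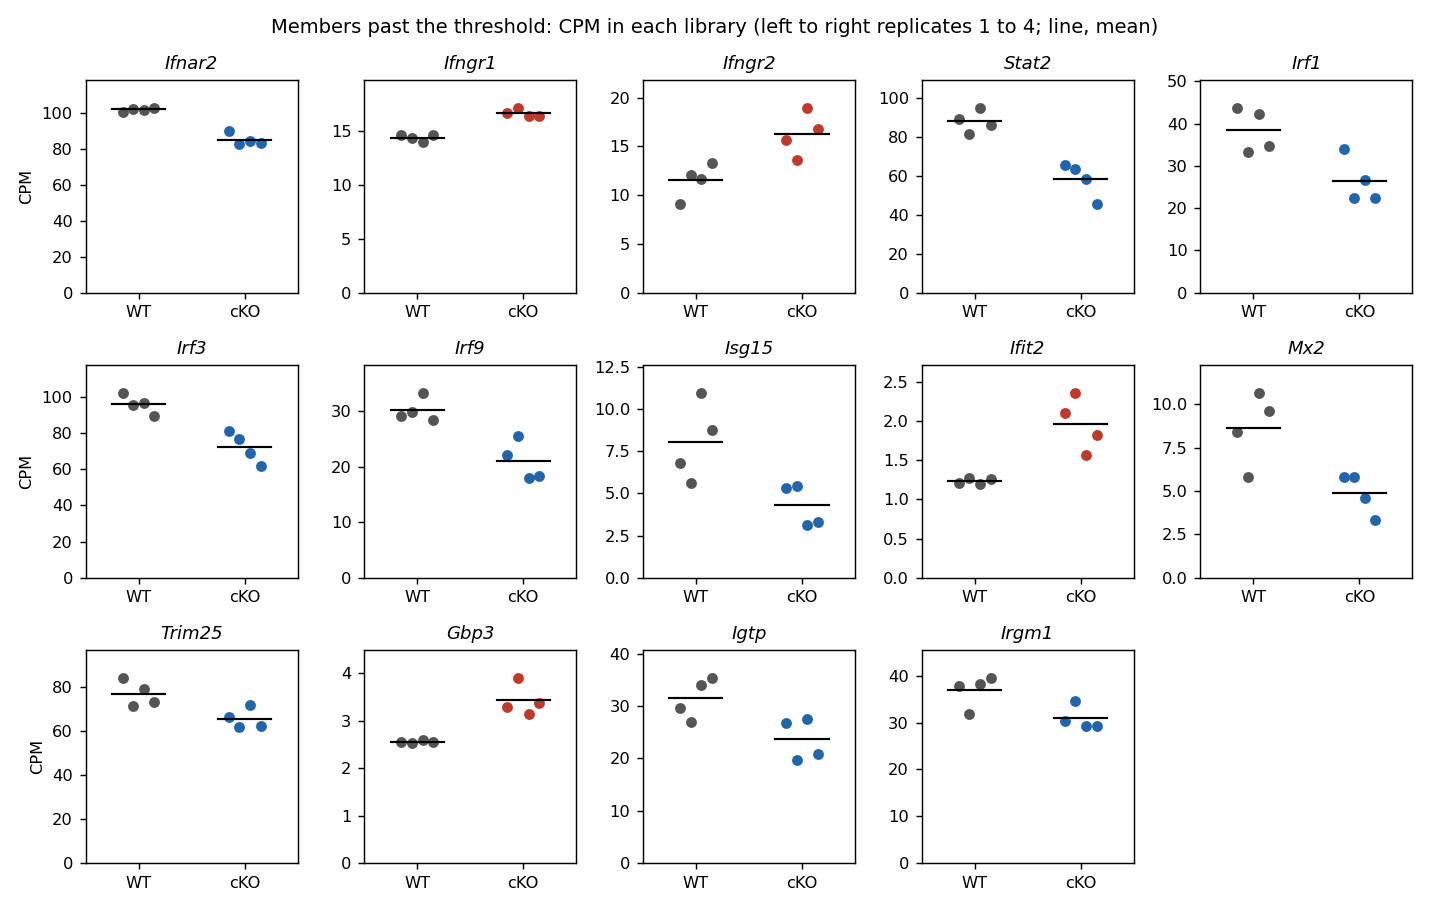
CPM in each of the 4 WT and 4 cKO libraries for the 14 members past the threshold, with the group mean as a line and each axis starting at 0. Ifnar2, Stat2, Irf3 and Irf9 show separate groups, while Irf1, Trim25, Igtp and Irgm1 overlap.

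The 3 sensors of double-stranded RNA did not pass in either direction; 1 of them, Ifih1, was higher at an unadjusted p under 0.05 with edgeR, and neither DESeq2 nor limma-voom called any. Ifih1, which detects long RNA, had 12.2 ± 2.34 CPM in WT against 14.9 ± 0.86 CPM in cKO (log2 change 0.29, SE 0.12, edgeR adjusted p = 0.0889). It passed without WT replicate 4 (log2 change 0.40, adjusted p 0.0135) and under 5 other alternatives, among them library size alone (0.0219) and log2(TPM + 1) (0.026). Ddx58, which detects short RNA with a phosphorylated end, had a log2 change of 0.08, and Dhx58, a regulator of both, of -0.23 (edgeR adjusted p values 0.476 and 0.290).

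Isg15 and Usp18, a ubiquitin-like modifier and the protease that removes it, had changes of opposite sign. Isg15 (chromosome 4, 156199424 to 156200818) had 6.78, 5.59, 10.96 and 8.76 CPM in WT and 5.32, 5.43, 3.12 and 3.27 CPM in cKO. Its estimated fall was the largest among the members (log2 change -0.91, SE 0.25, edgeR adjusted p = 0.0255), and 2 cKO libraries lay only just below the lowest WT library. The call was lost without any 1 of WT replicates 3 and 4 and cKO replicates 3 and 4 (0.0539 to 0.0735) and with no filter (0.0782). Usp18, which also shuts off the type I receptor, had 10.97 ± 2.67 CPM in WT against 14.7 ± 2.04 CPM in cKO (log2 change 0.42, SE 0.17, edgeR adjusted p = 0.0878). DESeq2 placed Usp18 past the threshold (0.0448), as did library size alone (0.0327).

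Among the IFIT genes, whose products bind viral RNA, 1 member of the cluster on chromosome 19 rose. Ifit2 had 1.204, 1.27, 1.19 and 1.26 CPM in WT and 2.11, 2.36, 1.57 and 1.82 CPM in cKO, a rise to 159% of WT with no overlap (log2 change 0.67, SE 0.17, edgeR adjusted p = 0.0114). Ifit1 and Ifit3 had log2 changes of -0.40 and -0.26 and did not pass (edgeR adjusted p values 0.170 and 0.167). Ifit3 has a near-identical copy, Ifit3b, at 1.66 ± 0.43 CPM in WT against 1.73 ± 0.20 CPM in cKO, and shared reads make the division between them uncertain; Ifit1 likewise overlaps its paralog Ifit1bl1. Ifi35, a partner of the regulator Nmi, and Ifi44 had -0.17 and 0.32 (0.111 and 0.286).

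The 5 genes of the oligoadenylate synthetase family, of which the Oas enzymes make a second messenger on sensing double-stranded RNA, did not pass in either direction, nor did any at an unadjusted p under 0.05, with DESeq2 or with limma-voom. Their log2 changes ran from -0.50 for Oas2 to 0.33 for Oasl2, with Oas1a, Oas3 and Oasl1 at 0.21, 0.25 and 0.26. Oasl1 passed without WT replicate 3 (log2 change 0.42, adjusted p 0.017) and on log2(TPM + 1) (0.0231). Oas2 varied most among the cKO libraries of all members, with a coefficient of variation of 44.6%. Near-identical Oas1 copies make the value of Oas1a uncertain.

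Of 8 other antiviral effectors Mx2 and Trim25 were lower. Mx2, of the family of dynamin-like GTPases, had 8.42, 5.83, 10.7 and 9.62 CPM in WT and 5.80, 5.81, 4.57 and 3.35 CPM in cKO. The groups met at WT replicate 2 (log2 change -0.82, SE 0.21, edgeR adjusted p = 0.0166), and the call was lost without cKO replicate 3 (0.0522) and on log2(TPM + 1) (0.119). Trim25, the ubiquitin ligase that assists Ddx58, had 84.4, 71.5, 79.3 and 73.2 CPM in WT and 66.3, 61.7, 72.0 and 62.3 CPM in cKO. Here replicate 3 of cKO was above the lowest WT library (log2 change -0.23, SE 0.08, edgeR adjusted p = 0.039). Its call ended under 11 of 20 alternatives, such as omitting either of WT replicates 1 and 3 or any of cKO replicates 1, 2 and 4 (0.0707 to 0.117) and library size alone (0.269).

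The other effectors did not pass. Mx1, which is defective in C57BL/6 and most laboratory strains, had -0.54 on the log2 scale (edgeR adjusted p = 0.127), and passed without cKO replicate 1 (log2 change -0.78, adjusted p 0.0352). Rtp4, a chaperone for membrane receptors, had -0.33 (0.106), and passed without cKO replicate 1 (-0.44, 0.0459). Rsad2, or viperin, had 0.27, the poly-ADP-ribosyltransferase Parp14 0.06 and Eif2ak2, the kinase that stops translation on sensing double-stranded RNA, 0.04 (edgeR adjusted p values 0.243 to 0.758). Bst2, which tethers budding virus to the cell, had 87.3 ± 3.80 CPM in WT against 94.6 ± 4.02 CPM in cKO (log2 change 0.12, edgeR adjusted p = 0.202) and was past the threshold with library size alone (0.0203) and on log2(TPM + 1) (0.00548).

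Among 6 interferon-induced GTPases Gbp3 was higher and Igtp and Irgm1 were lower. Gbp3, a guanylate-binding protein, had 2.55, 2.53, 2.59 and 2.55 CPM in WT and 3.29, 3.90, 3.14 and 3.37 CPM in cKO. All cKO libraries were above the nearly constant WT level (log2 change 0.42, SE 0.12, edgeR adjusted p = 0.0226), though the call was lost without WT replicate 2 (0.0512) or 3 (0.0504) or cKO replicate 2 (0.0558). Gbp2 and Gbp7 had log2 changes of 0.37 and 0.31 and did not pass (edgeR adjusted p values 0.219 and 0.174). The genes on either side of Gbp3 are Gbp7 and the paralog Gbp2b, which was lower (-0.77, 0.0439), as was another paralog, Gbp11 (-1.13, 0.0297).

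Igtp, of the immunity-related GTPases, had 29.6, 27.0, 34.1 and 35.4 CPM in WT and 26.8, 19.6, 27.5 and 20.9 CPM in cKO, with cKO replicate 3 inside the WT range (log2 change -0.41, SE 0.12, edgeR adjusted p = 0.0294). Irgm1 of the same family, which guards the cell's own membranes against the other members, had 37.8, 31.9, 38.3 and 39.6 CPM in WT and 30.4, 34.7, 29.3 and 29.3 CPM in cKO, also overlapping (log2 change -0.26, SE 0.08, edgeR adjusted p = 0.0374). The call of Igtp ended on omission of any of WT replicates 3 and 4 and cKO replicates 2 and 4 (0.0668 to 0.0875). Leaving out any 1 library except WT replicate 2 and cKO replicate 2 ended that of Irgm1 (0.0756 to 0.113), and both were lost with library size alone (0.0997 and 0.181). Iigp1 had 125 ± 8.58 CPM in WT against 133 ± 34.5 CPM in cKO, short of the threshold (log2 change 0.09, edgeR adjusted p = 0.683).

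Levels between genes were compared in TPM, which divides by transcript length. In WT the highest were Bst2 at 149 ± 5.86 TPM, Irf3 at 112 ± 10.5 TPM and Ifnar2 at 111 ± 3.11 TPM, of which the last pair did not differ beyond their spread. Iigp1, Ifi35 and Stat2 followed at 47.2 ± 2.91, 34.5 ± 1.49 and 28.7 ± 2.11 TPM. Irf1 at 23.2 ± 2.94 TPM and Irf7 at 22.9 ± 0.90 TPM did not differ beyond their spread. The lowest were Ifi44, Ifit2 and Oas3 at 0.405 ± 0.052, 0.355 ± 0.013 and 0.133 ± 0.025 TPM. The 39 members together held 670 to 734 TPM in WT and 679 to 732 TPM in cKO, so that their summed share of the transcripts overlapped between the genotypes.

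**Figure D4:**
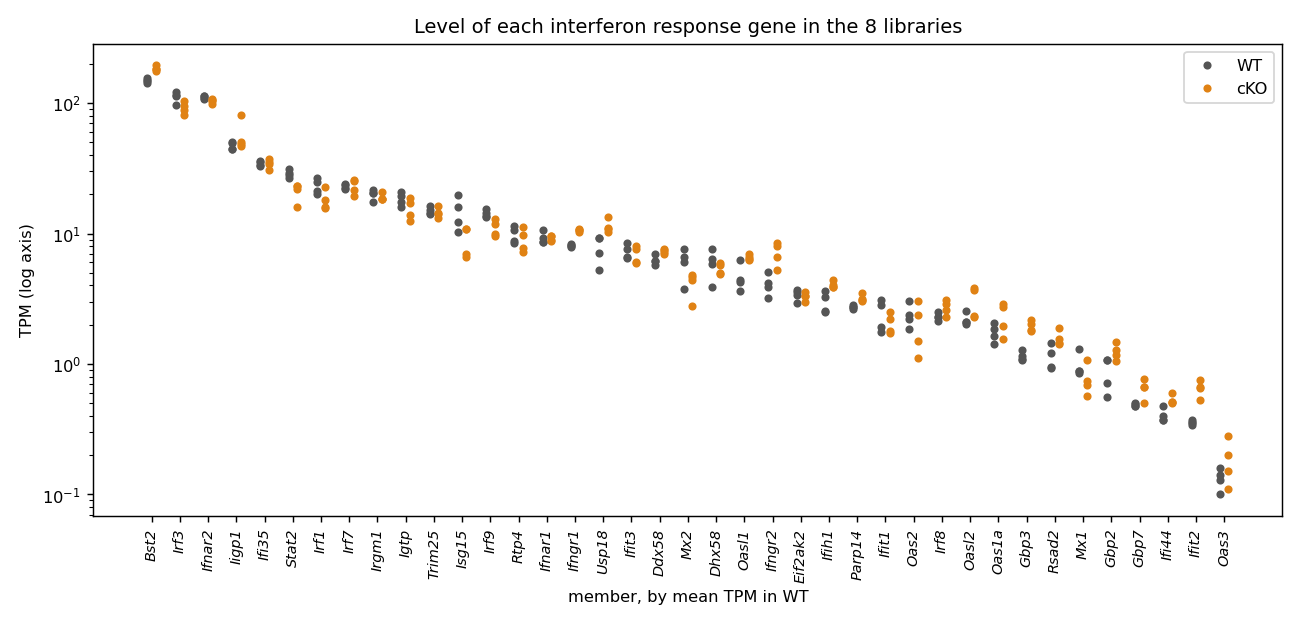
TPM of each member in the 4 WT (grey) and 4 cKO (orange) libraries on a log axis, in the order of mean TPM in WT. Levels run from 149 TPM for Bst2 to 0.133 TPM for Oas3 in WT, with Ifit2 and Ifngr1 among the members whose orange points lie above the grey ones.

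Members varied together among libraries of 1 genotype. WT replicate 2 held the lowest WT value of 24 members (61.5%), whereas it held the lowest value of 21.0% of all tested genes. The highest WT value was in replicate 3 for 17 members and in replicate 4 for 14. In cKO the highest value was in replicate 2 for 18 members (46.2%, against 25.6% of all genes) and the lowest in replicate 3 for 20 (51.3%, against 24.7%). The median over members of log2 CPM minus the WT mean was 0.04 and 0.05 in cKO replicates 1 and 2 and -0.19 and -0.20 in cKO replicates 3 and 4. In WT it was -0.04, -0.10, 0.08 and 0.06 in replicates 1 to 4. Over all tested genes it was -0.02 to 0.00 in every library. The members' coefficients of variation had a median of 9.26% in WT and 15.7% in cKO.

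**Figure D5:**
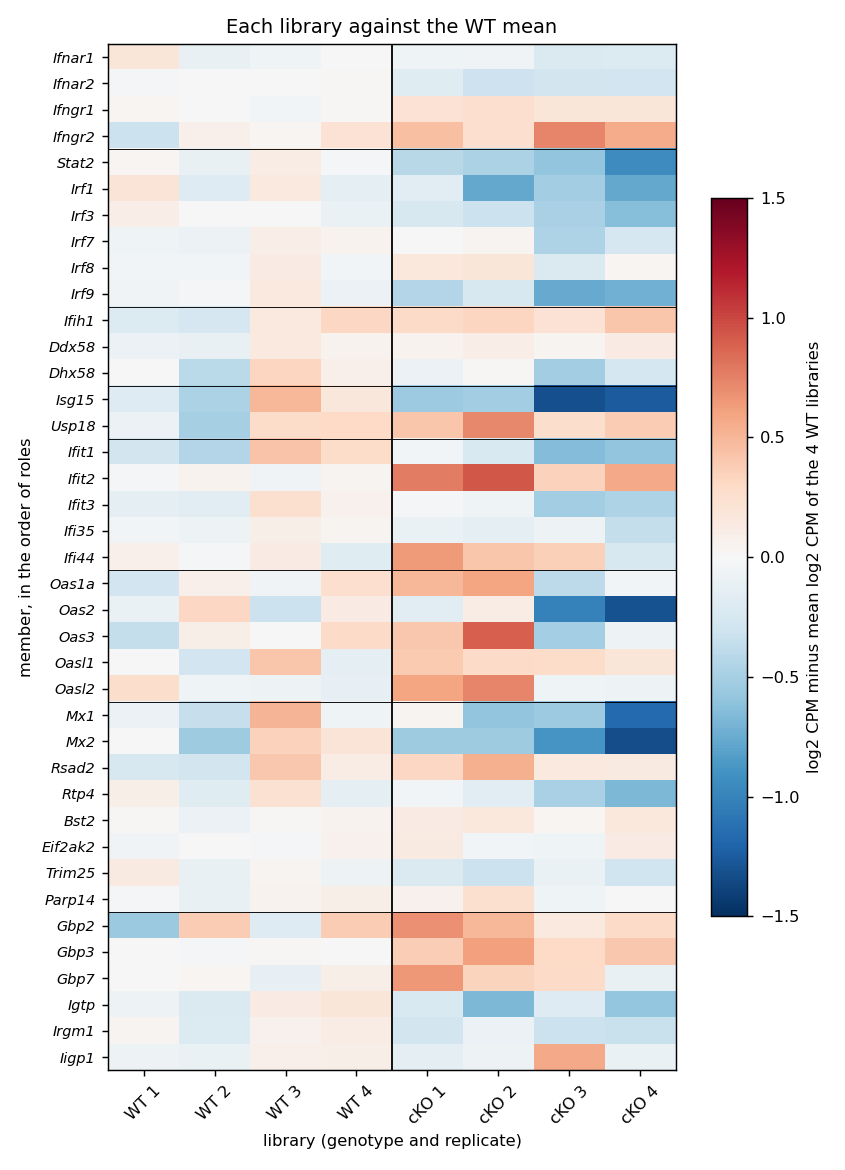
Log2 CPM of each member in each library minus the mean of the 4 WT libraries, on a colour scale from blue (lower) to red (higher). Stat2, Irf3 and Irf9 are blue in all 4 cKO libraries, Ifit2 and Gbp3 red in all 4, and many induced genes are paler or bluer in cKO replicates 3 and 4 than in cKO replicates 1 and 2.

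The rest of the pathway was read from 5 further lists of 154 genes, of which 122 were tested, 15 were higher and 16 lower (12.3% and 13.1%). Over all tested genes 15.2% were higher and 14.9% lower, so these genes were called less often (25.4% against 30.1%). The counts of each list below are to be set beside the same all-gene shares. Of 21 interferon genes none was tested, and 18 had no count in any library. Ifng, Ifnk and Ifnb1 had at most 3, 2 and 1 counts in a library. A count of 0 allows up to 0.0524 to 0.0683 CPM, counting error only, so ligand RNA was not detectable at this depth beyond those counts.

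Among 18 genes of kinases, further receptors, brakes and interferon regulatory factors, 3 were higher. Jak1, the kinase shared by all interferon receptors, rose from 58.6 ± 3.58 to 69.1 ± 5.60 CPM (log2 change 0.24, edgeR adjusted p = 0.0324), a call lost without any 1 of WT replicates 1 and 3 and cKO replicates 1 and 4 (0.0595 to 0.0918). Ifnlr1, the specific chain of the interferon lambda receptor, rose from 0.153 ± 0.028 to 0.554 ± 0.193 CPM (log2 change 1.84, edgeR adjusted p = 0.00272). In WT Ifnlr1 lay near the floor and below the minimum count of 10, a filter that it passed through the cKO libraries where it is high. It was called in the 17 alternative fits that tested it, which is no separate support for the rise. Its partner Il10rb was called in all 20. Tyk2, a kinase of the type I receptor, was short of the threshold at a log2 change of -0.16 (edgeR adjusted p = 0.175).

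Of 25 tested sensors and adaptors that act before interferon is made, 7 were lower and 2 higher. Ikbke, a kinase that activates Irf3, fell from 23.7 ± 3.98 to 14.3 ± 2.17 CPM (log2 change -0.73, edgeR adjusted p = 0.00282). Traf6, an adaptor of Toll-like receptors, and Trex1, a nuclease that clears cytosolic DNA, had log2 changes of -0.67 and -0.45. The subunits of ribonuclease H2, which removes RNA from DNA hybrids, differed in direction: Rnaseh2c had -0.69, Rnaseh2a -0.25 and Rnaseh2b 0.57. Zbp1, a sensor of Z-form nucleic acid, had -0.92 (edgeR adjusted p = 0.0127), and Tlr3, the endosomal receptor for double-stranded RNA, 0.44 (0.0388). Zbp1 was not past the threshold on log2(TPM + 1) (0.0563). The calls of Rnaseh2a and Tlr3 each ended under 7 of 20 alternatives: Rnaseh2a without any 1 of WT replicates 1 and 2 and cKO replicates 2 and 3 (0.0528 to 0.0821), and Tlr3 without any 1 library except WT replicate 3 (0.0534 to 0.099).

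Of 65 further induced genes tested, 10 were higher and 5 lower. Ifi27l2b and Ifi27, small proteins of one family on chromosome 12, rose by log2 2.80 and 0.47, Ly6e, a surface protein that hinders entry of coronaviruses, by 0.88, and Lgals3bp, a secreted glycoprotein, by 0.44. With the offset for transcript length Lgals3bp had 0.26 and was not past the threshold (adjusted p 0.0691). The chemokine Ccl5, which is made by T cells, rose from 1.35 ± 0.36 to 5.64 ± 2.56 CPM, beside the higher T cell markers given above; their part in it was not tested. Parp12 rose by log2 0.30, a call lost without WT replicate 1 or 2 or cKO replicate 4 (0.0525 to 0.0561). The membrane proteins Ifitm2 and Ifitm3, which hinder viral entry and are similar in sequence, fell from 215 ± 44.5 to 130 ± 11.98 CPM and from 214 ± 50.03 to 142 ± 9.55 CPM. Ifitm3 was at the threshold without cKO replicate 4 (adjusted p 0.0502). Ifitm1 of the same family was called higher, with log2 changes of 0.29 to 0.41 when any 1 library was left out. Its call was lost without any 1 of WT replicates 2 and 3 and cKO replicates 3 and 4 (edgeR adjusted p 0.057 to 0.0779). Pml, of nuclear bodies, and the coactivator Helz2 had log2 changes of -0.37 and -0.50, and Trim34a -0.47, a call that 12 of 20 alternatives ended (0.073 to 0.0901 without any 1 of replicates 1 to 3 of either genotype). On log2(TPM + 1) Pml was not past the threshold (0.272).

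Of 14 tested paralogs of the GTPases and Oas enzymes 3 were lower and 0 higher; 6 were lower and 0 higher at an unadjusted p under 0.05, and DESeq2 and limma-voom called 4 and 2 lower and 0 higher. Gbp11, Gbp2b and Irgm2 had log2 changes of -1.13, -0.77 and -0.28 (edgeR adjusted p values 0.0297, 0.0439 and 0.024). Each call was lost without at least 1 library, that of Gbp11 without any 1 of WT replicates 1 and 3 and cKO replicates 2 and 4 (0.0654 to 0.0792), that of Irgm2 without WT replicate 3 or cKO replicate 2 (0.076 and 0.0761) and that of Gbp2b without any 1 but WT replicate 1 and cKO replicate 2 (0.0518 to 0.140). Similar sequences make the division of reads between Gbp genes uncertain.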

How the data were processed

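RNA from frozen liver was extracted with Trizol and prepared with an Illumina TruSeq kit, per the labels' protocols. STAR 2.5.1, RSEM and the mm10 genome are named in the submitters' processing notes; for annotation and strand setting, the value is not given in the sources used here. Deposited were RSEM expected counts, which divide reads shared by similar genes, and TPM, which the authors scaled per length and to the same total in each library; the deposited effective lengths (other) served in 1 alternative. Replicates are separate samples by label only, so the p-values reflect spread among samples that may be technical.

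Expected counts were rounded, filtered with filterByExpr (minimum count 10, minimum total 15), scaled with TMM and compared with edgeR 4.0.16 (R 4.3.3; robust glmQLFit and glmQLFTest, Benjamini-Hochberg at 0.05). Standard errors were derived from F. Replicates differed by more than counting noise (lowest chi-square 28.4 for each degree of freedom). On simulated counts for 15534 genes the cKO against WT test recovered 58.2%, 89.6% and 100% of genes changed 1.5-fold, 2-fold and 4-fold. Only 67, 67 and 66 genes were changed by these folds, and 7.30% of the 178 calls were unchanged genes. In the data 4689 genes were called, so these shares need not hold there. Members, gene lists and tests were chosen with earlier results of these data known. All members were named, with full values for those past the threshold and for receptors and transcription factors. Other pathway genes were named by smallest p, at most 6 per direction and list, and Ifitm1 was added beside its family. Positions and promoters came from RefSeq GRCm38.p6. Alternatives covered scaling, filters, replicate block, length offset, DESeq2 1.42.0, limma 3.58.1 (voom, log2 TPM with at least 0.5 TPM in 4 libraries), threshold and each library left out. Some pathway genes are not reported here.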

Additional observations from a re-analysis of the deposited data

Results flagged for a closer look

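In 3 of 78 sets of 4 libraries, 1 library lay far from the other 3 by the size of its gap against the whole range; chance gives about 1 in 20 sets. Iigp1 stood at 185 CPM in cKO replicate 3, where the other cKO libraries had 114 to 118 CPM. Irf8 stood at 6.12 CPM in WT replicate 3, where the others had 5.47 to 5.50 CPM. Oasl2 stood at 4.43 CPM in WT replicate 1, where the others had 3.37 to 3.52 CPM.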

How the results depend on the processing

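Of the 14 called members 5 kept their call at 0.05 in all 20 alternative fits. Among these, Ifit2 entered the log2 TPM fits through its cKO level alone. Of the 25 members not called 19 were uncalled in every fit that tested them (19 fits for Ifi44, 17 for Oas3, otherwise 20), and no called member changed sign. Library size alone gave 3604 genes higher and 1318 lower, 7 members higher and 6 lower, and 10 other pathway genes lower. Library size without the 20 most abundant genes gave 1425 genes lower, and 7 members higher and 6 lower. On log2(TPM + 1) 816 genes, 4 members and 7 other pathway genes were lower and 8 members higher, and on log2(TPM + 0.1) 798, 3, 7 and 8. At an adjusted p under 0.01 there were 1165 genes higher and 1050 lower, 0 members higher and 4 lower (3 and 7 with DESeq2, 0 and 4 with limma-voom; 6 and 12 at an unadjusted p under 0.05 with edgeR), and 8 and 8 other pathway genes. The members' median log2 change was -0.13 with the filter of 1 CPM, which tested fewer members, and -0.15 with the length offset. Leaving out 1 library gave 1739 to 2540 genes higher and 1624 to 2486 lower, 2 to 5 members higher, 5 to 10 lower, a median of -0.06 to 0.03, and 9 to 15 other pathway genes higher and 11 to 17 lower. Of 31 called other pathway genes 13 kept their call at 0.05 in every fit that tested them (17 for Ifnlr1, 20 for the rest of the 13).

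Whether replicate numbers pair the libraries was not settled. Deviations of same-numbered libraries correlated at 0.042 to 0.057, and those of differently numbered libraries at -0.10 to 0.09. WT replicates 1, 2 and 3 correlated best with their own number but WT replicate 4 with cKO replicate 2. With the replicate block 2525 genes were higher and 2419 lower, with 5 and 7 members. It ended the calls of Isg15 (0.122), Mx2 (0.0694) and Irgm1 (0.0703), added Ifih1 (0.0483), and among other named genes ended those of Ifitm3 (0.0588) and Trim34a (0.0603). The cause of these shifts was not tested.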

Other observations

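Genes beside the lower members were looked at after the members' values were seen. The nearest tested protein-coding genes outside the set on either side of the 10 lower members, with members in between skipped, were 20 genes, of which 9 were lower and 4 higher in cKO. Over all tested protein-coding genes called lower, 24.9% of such neighbours were lower and 11.3% higher. Both neighbours were lower beside Stat2 (Apof, a lipid transfer inhibitor, log2 change -0.32, and Pan2, a subunit of a poly(A) nuclease, -0.40), Irf3 (Bcl2l12 -0.47 and Scaf1 -0.42), Irf9 (Rnf31, of the linear ubiquitin ligase, -0.40, and the meiotic cohesin subunit Rec8 -0.75) and Isg15 (Agrn -0.52 and Plekhn1 -0.38). Bcl2l12 and Scaf1 lie 0.01 and 0.098 kb from Irf3. On one side of Mx2, Tmprss2, a serine protease, was higher at 0.55; on the other the next gene is the member Mx1 (-0.54, edgeR adjusted p = 0.127), and beyond it Bace2, a membrane protease, was higher at 0.77. The neighbours of Irf1, Rad50 and Slc22a5, had -0.17 and 0.12 and did not pass (edgeR adjusted p values 0.203 and 0.353).

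Eif2ak2 had a mean effective length of 3182 bases in WT and 3771 bases in cKO, and its log2 change was 0.04 on counts and -0.20 with the offset for effective length. The pseudogene Gm6548, which overlaps it, fell from 7.22 to 4.17 CPM.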
